A study of Plutella xylostella with 12 samples.

Results

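The microRNAs (miRNAs) pxy-miR-2755-3p, pxy-miR-2756-5p, pxy-mir-2763-3p and pxy-mir-3338-3p of the diamondback moth, *Plutella xylostella*, were chosen by name as miRNAs first numbered from moths, and are 4 of the 105 miRNA names in the series. All 4 were measured, and all 4 held enough counts to be tested for dose and time. The libraries were small RNA preparations from whole 3rd instar larvae of the Waite strain, an insecticide-susceptible population, taken from larvae that survived chlorantraniliprole, a diamide insecticide that opens the ryanodine receptor calcium channel. The groups were the high dose (0.1 ppm) after 24 h, the low dose (0.01 ppm) after 24 h, the high dose after 6 h and the low dose after 6 h, with 3 biological replicates in each, 12 libraries in all. Every library therefore came from exposed survivors, and unexposed larvae were not analysed here. The labels do not say how many larvae went into a library or whether replicates came from separate rearings, so the p-values measure the spread between these libraries.

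A mature miRNA is a short RNA cut from 1 arm of a hairpin precursor, named 5p or 3p after that arm, and it guides an Argonaute protein to messenger RNAs that pair with its seed. Names are numbered in the order in which miRNAs are described. Low numbers therefore belong mostly to families shared across insects, whereas numbers such as these were given when small RNAs of moths were sequenced. miRNAs of narrow phylogenetic range are often less abundant than the shared families, and few of them have a known target. No target or function is attached here to any of the 4 names.

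Each library listed 59 to 90 names with total counts of 10714 to 41214, and the 24 h libraries were deeper on the whole, at 28682 to 41214 counts against 10714 to 30676 after 6 h. The files hold several rows for a name, and counts were summed over them. No row under 5 counts was present, so an unlisted name is not a measured 0. All 105 names carry the prefix of this species.

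Of the 4, only pxy-miR-2755-3p was abundant. It held 3771 counts over the 12 libraries, 86.5% of the counts of the 4 names, and took 1.07% ± 0.151 (SD, n = 12) of the counts of a library. It ranked 15th of the 105 names by its mean share, and between 15th and 19th within single libraries. The other members lay far below it: pxy-mir-2763-3p had 255 counts in all (0.0697% ± 0.0271 of a library) and ranked 54th. The total of pxy-mir-3338-3p was 198 counts (0.0577% ± 0.0283), which placed it 57th. The lowest was pxy-miR-2756-5p, with 135 counts in 10 libraries (0.0436% ± 0.0225 of a library that lists it). It ranked 65th by a mean share in which unlisted libraries were entered as 0. In every library pxy-miR-2755-3p outnumbered the other 3 together, by 3.72-fold to 12.4-fold with a median of 6.32-fold. These are counts of mature miRNAs and were not corrected for the ligation preferences of the library kit, which can differ between sequences. Together the 4 names made up 0.878% to 1.49% of the counts of a library.

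**Figure D1:**
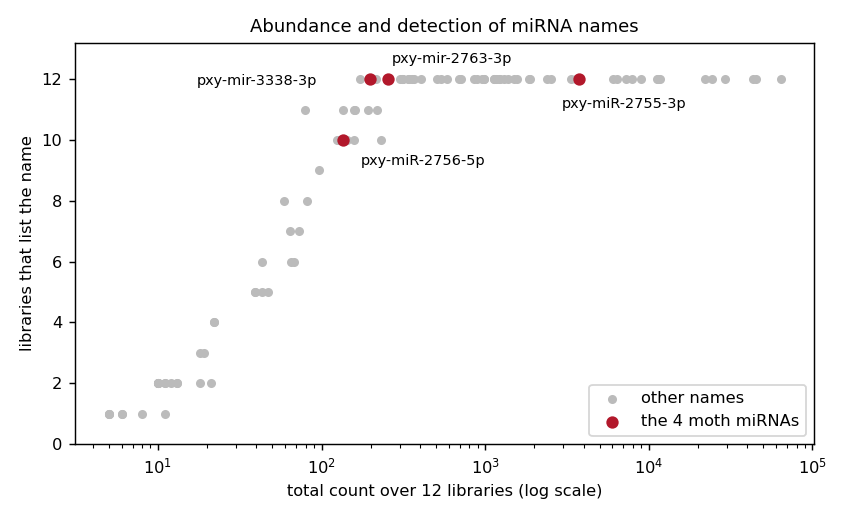
Total count of each of the 105 miRNA names over the 12 libraries (x axis, log scale) against the number of libraries that list it (y axis). Of the 4 moth miRNAs, in red, pxy-miR-2755-3p lies among the abundant names listed in all 12 libraries, pxy-mir-2763-3p (255 counts) and pxy-mir-3338-3p (198 counts) lie at the low end of those names, and pxy-miR-2756-5p (135 counts) is listed in 10 libraries.

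Detection followed the same order. The names pxy-miR-2755-3p, pxy-mir-2763-3p and pxy-mir-3338-3p were listed in all 12 libraries, as were 57 of the 105 names. The exception, pxy-miR-2756-5p, was missing from the low-dose replicate 2 at 6 h and from the high-dose replicate 3 at 6 h. The first of these is the shallowest library (10714 counts). The second held 25614 counts, and high-dose replicate 1 at 6 h, with 19692 counts, listed 7 counts of it. The part of depth and of counting error in these absences was not tested. Counts close to the lowest listed value were common among the less abundant members. Between 5 and 10 counts were listed in 4 libraries for pxy-miR-2756-5p, in 3 for pxy-mir-2763-3p and in 4 for pxy-mir-3338-3p, and in no library for pxy-miR-2755-3p. No other arm or copy with these numbers was listed.

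Levels are given below as CPM, counts scaled to a common library size with TMM factors. The level of pxy-miR-2755-3p was 9852, 11479 and 9150.4 CPM in the high-dose larvae and 10772, 10814 and 13002 CPM in the low-dose larvae after 24 h. After 6 h it was 11961, 10032 and 7889.7 CPM at the high dose and 9532, 11938 and 11619.5 CPM at the low dose. All 12 libraries lay within 1.65-fold of each other, and the doses overlapped at both times. Ordered by mean, the groups ran from low dose at 24 h (11529 ± 1276 CPM, SD, n = 3) and low dose at 6 h (11030.1 ± 1307) to high dose at 24 h (10161 ± 1195) and high dose at 6 h (9961 ± 2037). Each pair of neighbours in that order overlapped. In whole larvae, a lower level in each cell and fewer cells that make a miRNA cannot be told apart.

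The high dose did not change pxy-miR-2755-3p past the threshold. Its log2 fold change between high and low dose, averaged over times, was -0.16 ± 0.11 SE (adjusted p = 0.365 by the edgeR quasi-likelihood test, Benjamini-Hochberg over 73 names, with 6 libraries at each dose), and it was 0.11 with upper quartile scaling, under which the median of all tested names also moved up. The 95% interval of the fold was 0.766 to 1.05. Between 24 h and 6 h the value was 0.06 ± 0.11 (adjusted p = 0.797, edgeR), with a fold interval of 0.889 to 1.21. At single times and doses the fold intervals stayed between 0.712 and 1.32, so a change of the size of 2-fold lay outside each of them. The dose effects at 24 h and 6 h differed by -0.04 ± 0.21 (adjusted p = 0.986, edgeR).

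**Figure D2:**
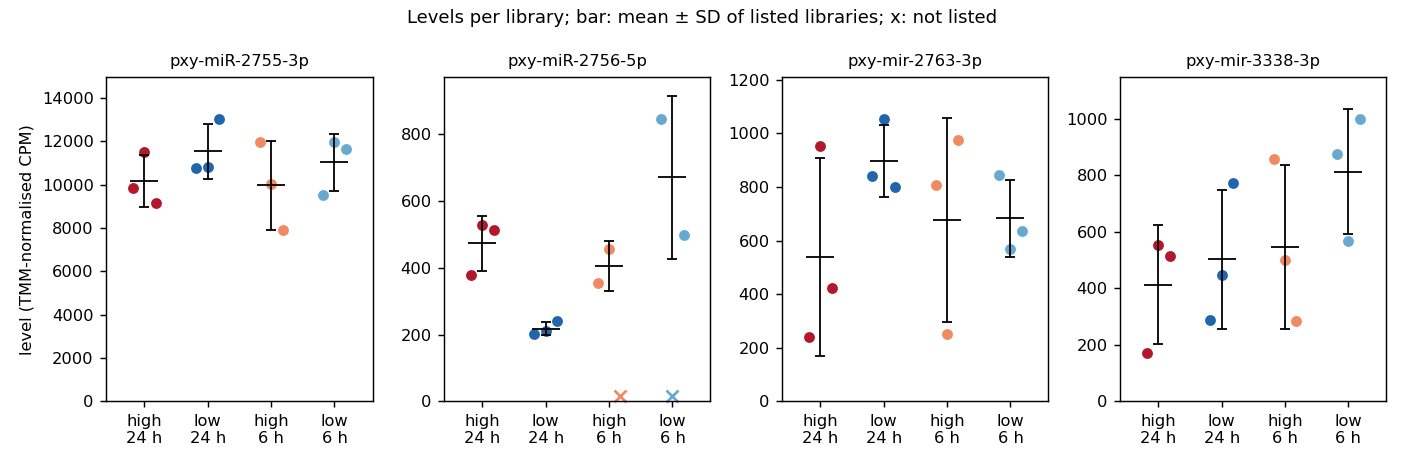
Level of each moth miRNA in TMM-normalised CPM (y axes start at 0 and differ between panels) in each library, by group. Points are libraries, crosses at the base mark libraries that do not list the name, and black bars give the mean ± SD of the listed libraries. The doses overlap within each time for all members other than pxy-miR-2756-5p. After 24 h its high-dose libraries lie above the low-dose ones (379 to 529 against 203 to 240 CPM). Groups of 41.1% of the 73 tested names do not overlap in that comparison, in either direction. After 6 h its listed high-dose libraries lie below the listed low-dose ones (353 to 458 against 499 to 845 CPM). Each dose also has a library that does not list it at 6 h, so whether the doses overlap there is not known.

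The least abundant member, pxy-miR-2756-5p, had the widest group differences. After 24 h it was listed at 11, 20 and 23 counts in the high-dose libraries and at 7, 8 and 9 counts in the low-dose libraries. After 6 h it was listed at 7 and 11 counts in high-dose replicates 1 and 2, and at 28 and 11 counts in low-dose replicates 1 and 3. In CPM, all 3 high-dose libraries lay above all 3 low-dose libraries at 24 h. At 6 h the order was the opposite among the libraries that list it, with high-dose values of 353 and 458 CPM below low-dose values of 499 and 845 CPM, but each dose also had 1 library that does not list it.

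The mean over listed libraries was 474 ± 82.5 CPM (SD, n = 3) in high-dose and 218 ± 19.6 (n = 3) in low-dose larvae after 24 h. After 6 h it was 406 ± 74.0 (n = 2) in high-dose and 672 ± 244 (n = 2) in low-dose larvae. Among listed libraries the order was low dose at 6 h, high dose at 24 h, high dose at 6 h and low dose at 24 h. Of the neighbours, only the high dose at 6 h and the low dose at 24 h did not overlap among listed libraries. Each 6 h group also had 1 library that does not list the name and may lie below the others. The order and the separation therefore hold for listed libraries only.

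None of these differences of pxy-miR-2756-5p passed the test, in which an unlisted name counts as 0. Between high and low dose at 24 h the log2 fold change was 1.12 ± 0.71 SE (adjusted p = 0.311, edgeR), a 2.18-fold higher level with an interval of 0.774-fold to 6.13-fold. With unlisted names as 0, groups that do not overlap were no rarity in this comparison, since 41.1% of the 73 tested names showed it (30 names in either direction, of which 11, or 15.1% of those tested, were higher at the high dose), against 15.1% in either direction at 6 h. At 6 h the value was -1.05 ± 0.80 (adjusted p = 0.575, edgeR), the opposite sign. The dose effects at 24 h and 6 h differed by 2.17 ± 1.07 (unadjusted p = 0.0567, adjusted p = 0.259, edgeR interaction term). Between 24 h and 6 h it was 0.85 ± 0.76 at the high dose (adjusted p = 0.622, edgeR) and -1.32 ± 0.75 at the low dose (adjusted p = 0.247, edgeR). Single 6 h libraries moved these values. Omitting low-dose replicate 1 gave a dose value at 6 h of -0.25 and a time value at the low dose of -0.65. Omitting high-dose replicate 3 gave -0.47 for the dose value at 6 h and 0.22 for the time value at the high dose. Omitting high-dose replicate 2 gave -1.77 and 1.52 for the same 2 comparisons.

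The values of pxy-miR-2756-5p that include 6 h libraries rest partly on the libraries that do not list it. When unlisted names were set to 4 counts, a choice made after seeing the data, the dose difference at 24 h was 1.29 (adjusted p = 0.0304, edgeR), the time difference at the low dose was -1.65 (adjusted p = 0.00936) and the difference of the dose effects was 2.21 (adjusted p = 0.0197), and all 3 passed. In the other alternatives that gave an adjusted p, none of these 3 passed, and the adjusted p at 24 h with only the libraries of that comparison was 0.117. All 24 h libraries list the name, so at 24 h the fill acted only through the shared fit and scaling. A filled count weighs more in the shallow low-dose replicate 2 at 6 h, where 6 counts of pxy-mir-2763-3p stood for 568 CPM. In low-dose replicate 1 at 24 h, 7 counts of pxy-miR-2756-5p stood for 203 CPM. The part of the fill in the time value of pxy-miR-2756-5p was not tested. The counts carry wide counting errors: the exact 95% Poisson interval was 4.12 to 17.1 for the 9 counts of low-dose replicate 3 and 5.49 to 19.7 for the 11 counts of high-dose replicate 1 at 24 h. Reads carry no molecular identifiers, so such intervals cover counting error only.

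Counts of pxy-mir-2763-3p were 7, 36 and 19 in the high-dose libraries and 29, 40 and 30 in the low-dose libraries after 24 h. After 6 h they were 16, 6 and 24 at the high dose and 28, 6 and 14 at the low dose. Within the high-dose larvae the libraries lay far apart at both times, and at 24 h high-dose replicate 2 fell inside the low-dose range.

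The mean level of pxy-mir-2763-3p was 539 ± 369 CPM (SD, n = 3) at the high dose and 897 ± 136 CPM at the low dose after 24 h, and 678 ± 380 and 683 ± 144 CPM at the high and low dose after 6 h. The coefficient of variation between replicates was 68.5% and 56.1% in the high-dose groups after 24 h and 6 h, against 15.2% and 21.1% in the low-dose groups. That difference in spread was not tested. At 24 h the counting intervals of 2 high-dose libraries did not overlap: the exact 95% Poisson interval of the 7 counts of high-dose replicate 1 was 2.81 to 14.4, and that of the 36 counts of high-dose replicate 2 was 25.2 to 49.8, in libraries of 28682 and 34545 counts. By mean level the order was low dose at 24 h, low dose at 6 h, high dose at 6 h and high dose at 24 h, and each pair of neighbours overlapped.

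Between high and low dose pxy-mir-2763-3p did not pass, with a log2 fold change of -0.39 ± 0.33 SE averaged over times (adjusted p = 0.479, edgeR) and -0.70 ± 0.44 at 24 h (adjusted p = 0.311, edgeR, fold interval 0.326 to 1.16). The value at 24 h depended on 1 library: without high-dose replicate 2 at 24 h it was -1.37 with an adjusted p of 0.0437 (edgeR), and over all single omissions it ran from -1.37 to -0.34. It was also -0.34 with upper quartile scaling. At 6 h the value was -0.08 ± 0.51 (adjusted p = 0.937, edgeR), and it was 0.11 with upper quartile scaling. Between 24 h and 6 h it was 0.02 ± 0.34 averaged over doses (adjusted p = 0.987, edgeR) and changed sign with the scaling. The dose effects at 24 h and 6 h differed by -0.62 ± 0.67 (adjusted p = 0.635, edgeR).

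For pxy-mir-3338-3p the libraries held 5, 21 and 23 counts at the high dose and 10, 17 and 29 counts at the low dose after 24 h. After 6 h they held 17, 12 and 7 counts at the high dose and 29, 6 and 22 counts at the low dose. Counts differed within every group. The 6 counts at the low dose came from the shallowest library and stood for 568 CPM, against 875 and 999 CPM in low-dose replicates 1 and 3 at 6 h. In CPM, all neighbouring groups overlapped.

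Mean levels of pxy-mir-3338-3p were 414 ± 210 CPM (SD, n = 3) at the high dose and 503 ± 246 CPM at the low dose after 24 h, and 547 ± 290 and 814 ± 221 CPM at the high and low dose after 6 h. The order from the highest mean was low dose at 6 h, high dose at 6 h, low dose at 24 h and high dose at 24 h. The log2 fold change between 24 h and 6 h, averaged over doses, was -0.53 ± 0.36 SE (adjusted p = 0.361, edgeR, fold interval 0.410 to 1.18). It was negative in each alternative that gave a value, from -0.78 to -0.38, and did not pass in any. Between high and low dose it was -0.45 ± 0.36 (adjusted p = 0.449, edgeR). At the single doses the time difference was -0.31 ± 0.53 at the high dose (adjusted p = 0.833, edgeR) and -0.75 ± 0.49 at the low dose (adjusted p = 0.341, edgeR). At the single times the dose difference was -0.23 ± 0.50 at 24 h (adjusted p = 0.784, edgeR), with the opposite sign under library totals and upper quartile scaling, and -0.67 ± 0.52 at 6 h (adjusted p = 0.581, edgeR). The dose effects at 24 h and 6 h differed by 0.44 ± 0.72 (adjusted p = 0.877, edgeR).

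**Figure D3:**
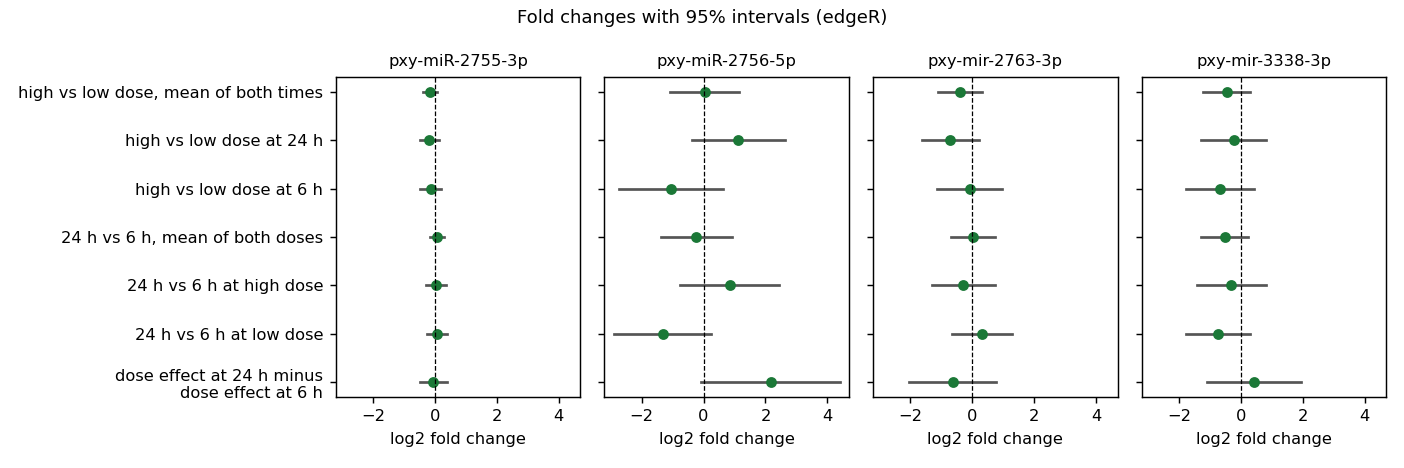
Log2 fold change (x axes) of each moth miRNA in the 7 comparisons (rows), with points for the edgeR estimate and lines for its 95% interval; the dashed line marks no change. Every interval includes 0, and those of pxy-miR-2755-3p are the narrowest.

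Across the 7 comparisons, 0 of the 4 moth miRNAs passed an adjusted p of 0.05 in edgeR, and 0 had an unadjusted p under 0.05 in either edgeR or DESeq2. The share of all 73 tested names that passed was 13.7% between doses averaged over times, 16.4% between doses at 24 h and 1.37% at 6 h. It was 11.0% between times averaged over doses, 6.85% at the high dose and 19.2% at the low dose, and 8.22% for the difference of the dose effects. Against shares of this size, 0 of 4 does not set these names apart from the rest. The median log2 fold change of the 4 was -0.28 between doses averaged over times, against -0.04 over all tested names, and -0.11 between times averaged over doses, against 0.05 over all tested names. How much a test could show differed between the members: the 95% interval lay within 2-fold in either direction in all 7 comparisons for pxy-miR-2755-3p, whereas for pxy-miR-2756-5p it did so in none.

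The members also differed in how their counts were spread over rows. What sets the rows of a name apart is not stated in the sources used here. For pxy-miR-2755-3p, 3 to 5 rows were listed, and 1 row held 75.0% to 84.0% of its counts in every library, with 8.86% to 18.6% in the second. Its highest-row share averaged 78.1% ± 1.62 (SD, n = 3) at the high dose and 77.0% ± 2.49 at the low dose after 24 h, and 79.4% ± 4.18 at the high dose and 76.1% ± 1.11 at the low dose after 6 h. These shares differed by less than the sum of the SDs of the groups compared.

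In pxy-mir-2763-3p the counts were split more evenly. Of 12 libraries 9 listed 2 rows, and the second row held 0.455 to 1.00 times the counts of the first, with a median of 0.714. In pxy-mir-3338-3p 8 libraries listed 2 rows, with a median ratio of 0.524, and in pxy-miR-2756-5p 4 libraries listed more than 1 row, with a median of 0.533. A second row near the listing limit can drop out, so that a library with 1 row understates the name. For pxy-mir-2763-3p the libraries with 1 row were high-dose replicate 1 at 24 h, high-dose replicate 2 at 6 h and low-dose replicate 2 at 6 h, with 7, 6 and 6 counts, the 3 lowest counts of this name. The part of this limit in the group differences was not tested directly. With the highest row alone in place of the sum, the dose value of pxy-mir-2763-3p at 24 h was -0.36 (adjusted p = 0.635, edgeR), against -0.70 with all rows. That of pxy-miR-2756-5p at 24 h was 0.88 (adjusted p = 0.448, edgeR).

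**Figure D4:**
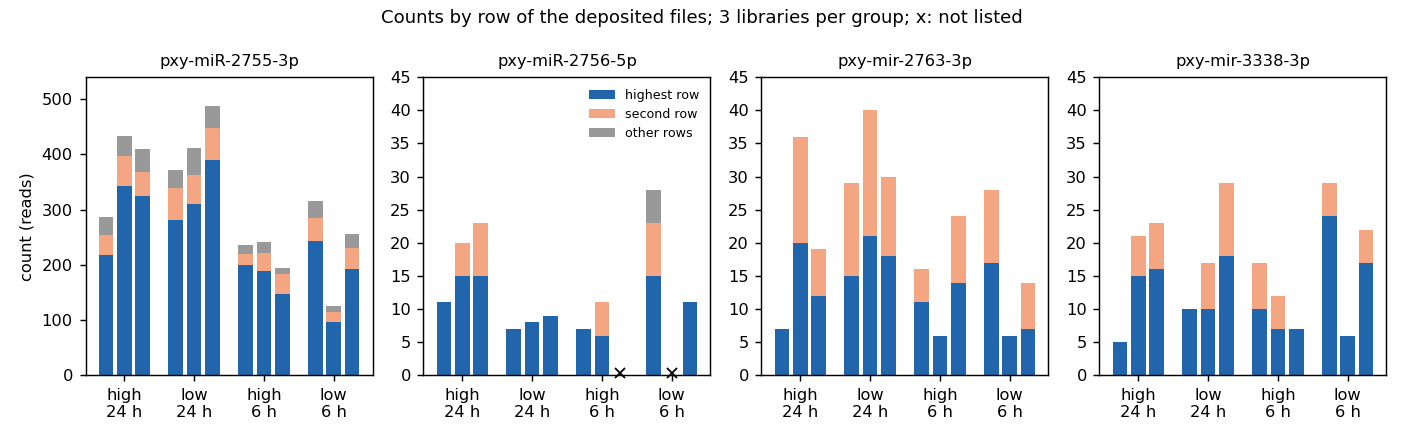
Counts (y axes, which differ in scale) of each moth miRNA in each of the 3 libraries of a group, divided into its highest row (blue), second row (orange) and further rows (grey) of the deposited files; crosses mark libraries that do not list the name. A single row dominates pxy-miR-2755-3p in all 12 libraries, whereas pxy-mir-2763-3p has a second row in 9 libraries, at 0.455 to 1.00 times the highest row.

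Variation between libraries was larger for the 3 rarer members than for pxy-miR-2755-3p. The SD of log2 CPM over the 12 libraries was 0.20 for pxy-miR-2755-3p, the 12th lowest of the 73 tested names, and the 10 names nearest to it in level had a median SD of 0.21. It was 0.64 for pxy-mir-2763-3p and 0.65 for pxy-mir-3338-3p, where the 10 names nearest in level had medians of 0.47 and 0.77. Some neighbours of pxy-mir-3338-3p are listed in only 10 or 11 libraries. Their SDs of 0.89 to 1.45 include unlisted libraries entered as 0 plus the prior count. Its neighbours listed in all 12 libraries had SDs of 0.34 (pxy-miR-8506-5p) to 0.64 (pxy-mir-2763-3p), all below 0.65. For pxy-miR-2756-5p the SD was 1.19, against 1.12 for its 10 neighbours, with the 2 libraries that do not list it entered as 0 plus the prior count. Over its 10 listed libraries, with no prior count, the SD was 0.66, against 0.74 for pxy-mir-2763-3p and 0.76 for pxy-mir-3338-3p over 12 libraries on the same scale. The SD of each member lay within the range of its 10 neighbours in level, but for pxy-mir-3338-3p only with neighbours that have unlisted libraries included. Between the rarer members there was no fixed order, as pxy-mir-2763-3p had more counts than pxy-mir-3338-3p in 6 libraries, fewer in 5 and the same number in 1.

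The names whose profiles over the 12 libraries were nearest to each member were found by the root mean square difference of mean-centred log2 CPM. For pxy-miR-2755-3p these were pxy-mir-11-3p and pxy-mir-14a-3p, at 0.16 each, against a median of 0.37 over all other tested names. For pxy-miR-2756-5p they were the joined entry pxy-miR-8510a-3p//pxy-miR-8510b-3p (0.61) and pxy-miR-2b-3p (0.74), with a median of 1.19. Both of these are unlisted in the same 2 libraries as pxy-miR-2756-5p, and unlisted libraries were entered as 0 plus the prior count, so the likeness includes those filled values. The nearest to pxy-mir-2763-3p were pxy-miR-252-5p (0.48) and pxy-mir-278-3p (0.51), with a median of 0.71. Those nearest to pxy-mir-3338-3p were pxy-mir-92b-3p (0.48) and pxy-miR-9b-5p (0.50), with a median of 0.75. All profiles share the libraries and their scaling, and names with little variation lie near each other by this measure.

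Among further names in the moth number ranges, 2 were listed, and both were too rare to test. Of these, pxy-mir-2796-3p had 59 counts in 8 libraries: it was listed in all 3 high-dose libraries (5 to 14 counts) and all 3 low-dose libraries (5 to 9 counts) at 24 h, and in 2 low-dose libraries (5 and 6 counts) and no high-dose library at 6 h. The other, pxy-mir-2768-3p, had 22 counts in 4 libraries, with 5 to 7 counts in each. The 24 h libraries were deeper on the whole, and the part of depth in the more frequent listing of these names at 24 h was not tested.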

How the data were processed

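Whole-larva small RNA libraries were made with a TruSeq kit and sequenced on an Illumina HiSeq, per the labels' protocols. The deposited values are raw counts in rows of a miRNA name and a count, per the file headers. The mapper, miRNA reference and any filter were not stated in the sources available. Groups come from the sample labels. The rows of each name were added up, and the lowest row in every file held 5 counts. Library totals were 10714 to 41214. Within groups, all 12 pairs of libraries differed by more than sampling noise (chi-square over its degrees of freedom 2.87 to 10.1), and none were merged.

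Dose and time were tested in edgeR 4.0.16 (R 4.3.3) by the quasi-likelihood method, with filterByExpr at a minimum count of 10, TMM scaling and 1 mean per group over the 12 libraries. P-values were adjusted by Benjamini-Hochberg over 73 tested names, with 0.05 as the threshold. Standard errors are the log2 fold change over the square root of F, and 95% intervals use the t quantile of the test. Profiles used log2 CPM with a prior count of 2. The fit was tested on simulated data. Alternatives were DESeq2 1.42.0, other scalings and filters, the highest row of a name, a replicate block, fewer libraries, and unlisted names set to 4 counts, the last added after the data were seen. Named are the 4 members, further names in the moth number ranges and the 2 nearest profiles of each member. The members and lists were chosen with earlier results of these data known. The reference table used here gave no miRNA entry, so no position or sequence is printed.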

Additional observations from a re-analysis of the deposited data

How the results depend on the processing

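No moth miRNA passed in any of the 7 comparisons under DESeq2, under RLE, library-total or upper quartile scaling, with no low count filter, with the highest row alone or with the replicate block, except that DESeq2 gave no adjusted p for pxy-miR-2756-5p between doses at 24 h. With at least 10 counts in every library only pxy-miR-2755-3p remained in the test, and it did not pass. With only the libraries of a comparison, which applies to 4 comparisons, none passed, and pxy-miR-2756-5p was tested in 2 of the 4. With unlisted names set to 4 counts, 1 member (pxy-miR-2756-5p) passed between doses at 24 h, 1 between times at the low dose and 1 for the change of the dose effect with time. Leaving out single libraries gave 0 to 1 calls between doses at 24 h, the call being pxy-mir-2763-3p, and no call elsewhere. Of the 580 values of members under alternatives, 503 kept their sign and side of the threshold, 4 newly passed and 73 changed sign without passing. The sign changes concern small values, so no direction is claimed for them, and the cause was not tested.

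For pxy-miR-2755-3p, upper quartile scaling gave 0.11, 0.030 and 0.19 between doses averaged, at 6 h and at 24 h, and library totals gave 0.045 at 24 h. Between times averaged over doses it was -0.0092 with unlisted names at 4. At the low dose it was -0.014 in DESeq2, -0.013 with RLE factors, -0.12 with library totals, -0.011 without a filter and -0.043 with unlisted names at 4. Its difference of the dose effects was 0.043 in DESeq2, 0.042 with RLE, 0.30 with library totals, 0.16 with upper quartile factors, 0.045 without a filter, 0.11 with at least 10 counts in every library, 0.0016 with the highest row and 0.068 with unlisted names at 4. For pxy-mir-2763-3p the value between doses at 6 h was 0.11 with upper quartile factors and 0.00061 with the highest row. Between times averaged over doses it was -0.030 in DESeq2 and -0.032 with RLE, -0.0045 with library totals, -0.024 without a filter, -0.12 with the highest row, -0.014 with the replicate block and -0.049 with unlisted names at 4. For pxy-mir-3338-3p between doses at 24 h it was 0.00079 with library totals, 0.13 with upper quartile factors and 0.026 with the highest row. For pxy-miR-2756-5p the highest row gave -0.063 between doses and 0.075 between times, both averaged.

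Over the 12 fits that left out 1 library each, the values that changed sign ran for pxy-miR-2755-3p from -0.12 to 0.13 between times at the high dose, -0.11 to 0.081 between times at the low dose, -0.066 to 0.060 between times averaged over doses, -0.14 to 0.15 for the difference of the dose effects and -0.28 to 0.024 between doses at 24 h. They ran for pxy-miR-2756-5p from -0.60 to 0.10 between times averaged over doses and -0.30 to 0.50 between doses averaged over times. They ran for pxy-mir-2763-3p from -0.95 to 0.10 between times at the high dose, -0.31 to 0.17 between times averaged over doses and -0.53 to 0.32 between doses at 6 h, and for pxy-mir-3338-3p from -0.64 to 0.092 between times at the high dose and -0.46 to 0.32 between doses at 24 h.

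Calls over all tested names moved more. Between doses at 6 h the count of 1 became 0 with RLE factors, with the replicate block and with only the 6 h libraries, 2 with library totals, with the highest row and with unlisted names at 4, 3 without a filter and 4 with upper quartile factors. Between times at the low dose 14 became 8 with RLE factors, the highest row or only those libraries, 6 with upper quartile factors, 7 with at least 10 counts in every library and 9 with unlisted names at 4. Between times averaged over doses 8 became 5 with at least 10 counts in every library. With upper quartile factors 5 became 3 between times at the high dose and 6 became 3 for the change of the dose effect with time. The split of calls between doses averaged over times was 3 higher and 7 lower, against 10 higher and 1 lower under upper quartile scaling. That scaling moved the median of all tested names from -0.04 to 0.23. Over single omissions the counts ran from 4 to 16 between doses averaged over times, 0 to 7 at 6 h and 7 to 19 at 24 h, from 4 to 12 between times averaged over doses, 5 to 13 at the low and 3 to 7 at the high dose, and from 3 to 9 for the difference of the dose effects.

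A pairing of libraries by replicate number was not seen, though with 3 libraries in each group this check cannot exclude one. Of 18 same-numbered pairs across groups, 5 had a correlation of deviations over 0.1 (range -0.32 to 0.37), and 4 of 12 libraries correlated best with their own number. The replicate block changed no call of a moth miRNA. Counts of 5 to 40 per library limit what can be shown for the 3 rarer members.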

Other observations

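Names whose numbers were assigned to *P. xylostella* were set beside the moth miRNAs as a description of detection, with no test. All 4 moth miRNAs, a chosen set, could be tested and 3 were listed in all 12 libraries. The 2 further names in the moth number ranges are not among these 4. Of those 2, 0 could be tested and 0 were listed in all libraries, with a median total of 40.5 counts. Of 28 names in the *P. xylostella* range, 13 could be tested and 9 were listed in all 12 libraries. Their median total was 71.5 counts over all libraries, against 226.5 for the 4 moth miRNAs and 584 for the 71 remaining names outside these lists. The 28 names together held 1.98% of all counts, the 4 moth miRNAs 1.22% and the 71 remaining names 96.8%. The range used begins just above pxy-miR-8489a-3p, whose 2533 counts in 12 libraries are therefore among those of the 71 names.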
